A study of Mus musculus with 12 samples.

Results

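Knockdown of Kdm6a by RNAi in the female mouse embryonic stem (ES) cell line PGK12.1 was measured on 8 of the 12 expression arrays of the study, as 4 of its 6 RNAi experiments. Each experiment was a pair of arrays with the same number, 1 of cells given control siRNAs with no target and 1 of cells given siRNAs against Kdm6a, so the change of a gene was taken within an experiment, as its log2 value in Kdm6a RNAi cells less that in control RNAi cells. Of 19951 genes with a probe set of their own, 15340 were tested, those whose mean level reached 0.1 of the array mean, and 4611 were left out as too dim. The study asked how the X-linked histone demethylase KDM6A acts on sex-biased genes of the Rhox homeobox cluster, and the values below cover the rest of the genome.

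PGK12.1 was derived from blastocysts of a 129 mother and a (129 X PGK)F1 father, and WD44, the male line of the other 4 arrays (2 experiments), from BL6 blastocysts. Sex and strain background therefore cannot be told apart between the lines, and each sex is 1 line. All cells were undifferentiated, at passage 14 to 18, grown with LIF on feeder fibroblasts that were depleted on gelatin before transfection. Control cells received Invitrogen Stealth siRNAs without a target, and knockdown cells a pool of siRNAs against several places of the Kdm6a mRNA. PGK12.1 experiments 1 and 2 were double RNAi (100 pmol for 48 h, then 400 pmol for 24 h, harvest at 72 h), while the WD44 pairs and PGK12.1 experiments 3 and 4 were single RNAi (100 pmol, harvest at 48 h). Dose, harvest time and a reseeding of the cells changed together between double and single RNAi. Experiments 1 and 2 also shared an array scale apart from those of experiments 3 and 4, so these differences cannot be told apart. The experiments are described as individual RNAi experiments of one line, so the p-values measure the spread between transfections, to which the WD44 pairs also contribute, and not that between independent lines.

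KDM6A (UTX) removes methyl groups from lysine 27 of histone H3, a mark laid down by Polycomb repressive complex PRC2, and belongs to the KMT2C and KMT2D complexes that methylate lysine 4 of the same histone. Its gene lies on the X chromosome and escapes X inactivation, and undifferentiated female ES cells carry a pair of active X chromosomes. ES cells held in LIF express the pluripotency factors and sit in a balance of LIF, FGF, Wnt, BMP and Nodal signals, and a small share of them at any time shows transcripts of the embryo's 2-cell stage.

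The targeted gene checked the labels. Kdm6a stood at 1.81, 2.04, 1.84 and 3.05 times the array mean after control RNAi in experiments 1 to 4 and at 0.74, 0.728, 0.691 and 1.57 after Kdm6a RNAi. Every knockdown array was below its control, by -1.27, -1.50, -1.42 and -0.96 on the log2 scale. The mean log2 change was -1.29 ± 0.077 (SE, n = 4 experiments, limma adjusted p = 0.000298), a fall of 59.0%, and Kdm6a was the only tested gene whose mean moved by more than 1. Double RNAi gave a mean of -1.39 and single RNAi one of -1.19. All 7 ES cell markers passed the minimum level, with a summed level of 57.2 to 86 times the array mean after control and 57.6 to 85.5 after Kdm6a RNAi, and none was called. Of the markers of feeder fibroblasts 6 of 8 were tested (summed level 1.29 to 2.02 and 1.26 to 1.95), of primitive endoderm 6 of 6 (0.946 to 1.31 and 0.886 to 1.32), of trophoblast 3 of 5 (0.712 to 0.993 and 0.741 to 0.903), of neurons 4 of 4 (6.96 to 10.4 and 7.48 to 10.7) and of macrophages 1 of 5 (0.99 to 1.8 and 1.18 to 1.81), and none was called. The feeder marker Dcn, at a mean of 0.0757 after control and 0.0758 after Kdm6a RNAi, passed the minimum of 0.1 only through WD44. Probe levels carry background and have no true 0. In RNA of whole cultures, fewer cells of a type and less RNA per cell cannot be told apart.

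After Kdm6a RNAi 323 genes were lower and 568 higher at an adjusted p under 0.05, which was 2.11% and 3.7% of the genes tested and together 891 genes or 5.81%. All 323 lower genes fell in each of the 4 experiments and 566 of the 568 higher genes rose in each. Among all tested genes 26.9% kept one sign in the 4 experiments, 1633 lower and 2495 higher. The calls were made from these same 4 changes, so their agreement in sign largely follows from the selection. The changes were small: the median log2 change was -0.27 among the lower and 0.26 among the higher genes, 34 genes fell and 32 rose by at least 0.5, and the median over all tested genes was 0.0075. Over all tested genes double RNAi gave SDs of the log2 changes of 0.181 and 0.165 (experiments 1 and 2) and single RNAi SDs of 0.159 and 0.139 (experiments 3 and 4), and 207, 171, 135 and 127 genes in experiments 1 to 4 had a change of at least 0.5 in either direction. The changes of 2 experiments correlated at 0.293 (experiments 1 and 3) to 0.421 (experiments 1 and 2), as a description over genes that share the arrays. The counts rested on the number of experiments and on the model. They were 203 lower and 291 higher without experiment 1, 153 and 198 without experiment 2, 207 and 335 without experiment 3, and 212 and 396 without experiment 4. With the PGK12.1 arrays alone they were 206 and 332. In each of the 4 fits that left out 1 PGK12.1 experiment 117 lower and 172 higher genes passed. The paired test named in the study's methods, which takes each gene's spread from the 4 PGK12.1 pairs alone, left 0 genes after Benjamini-Hochberg adjustment and 930 lower and 1517 higher at an unadjusted p under 0.05, against 3471 genes at that unadjusted threshold in the limma fit.

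After Kdm6a itself the largest falls were those of Wfdc2, Foxh1 and Lefty2, the last pair described with the Nodal pathway. Wfdc2, a secreted protease-inhibitor-like protein of epithelia, stood at 0.821, 0.801, 0.885 and 1.56 times the array mean after control and 0.527, 0.507, 0.485 and 0.801 after Kdm6a RNAi. All 4 pairs fell, by -0.62, -0.67, -0.87 and -0.96, for a mean log2 change of -0.78 ± 0.068 (limma SE, n = 4, limma adjusted p = 0.000603), and the level fell by 41.8%. Plet1, a surface protein of trophoblast progenitors, went from 0.367, 0.374, 0.29 and 1.03 to 0.229, 0.252, 0.186 and 0.611, a change of -0.66 ± 0.048 (adjusted p = 0.000447). Its 4 changes lay between -0.75 and -0.58, so the pairs differed little among themselves. Aqp3, a water and glycerol channel, went from 2.65, 2.51, 1.43 and 1.11 to 1.64, 1.66, 0.991 and 0.712 (-0.61 ± 0.046, adjusted p = 0.000447), lower in each pair by a like amount. Sting1, the adaptor of cytosolic DNA sensing, gave the narrowest range of the 20 largest falls, with log2 changes of -0.55, -0.56, -0.58 and -0.53 (mean -0.56, adjusted p = 0.000467). Hspb8, a small heat shock protein (-0.67), Mpzl2, an epithelial adhesion protein (-0.66), Capg, an actin-capping protein (-0.58), Tspan1, a tetraspanin (-0.57), Slc51a, a subunit of a bile acid transporter (-0.56), and S100a6, a calcium-binding protein (-0.54), fell too. Spic, an ETS-family transcription factor, changed by -0.58, Nlrp9b by -0.60, Fam169b by -0.57 and Plekha2 by -0.55. Hesx1, a homeobox repressor of the early forebrain, fell by 0.38, 0.36, 0.43 and 1.2 in the 4 experiments (mean -0.59, adjusted p = 0.0238), and its mean without experiment 4 was -0.39. All 20 of the largest falls passed the threshold in each of the 4 fits without 1 experiment.

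**Figure D1:**
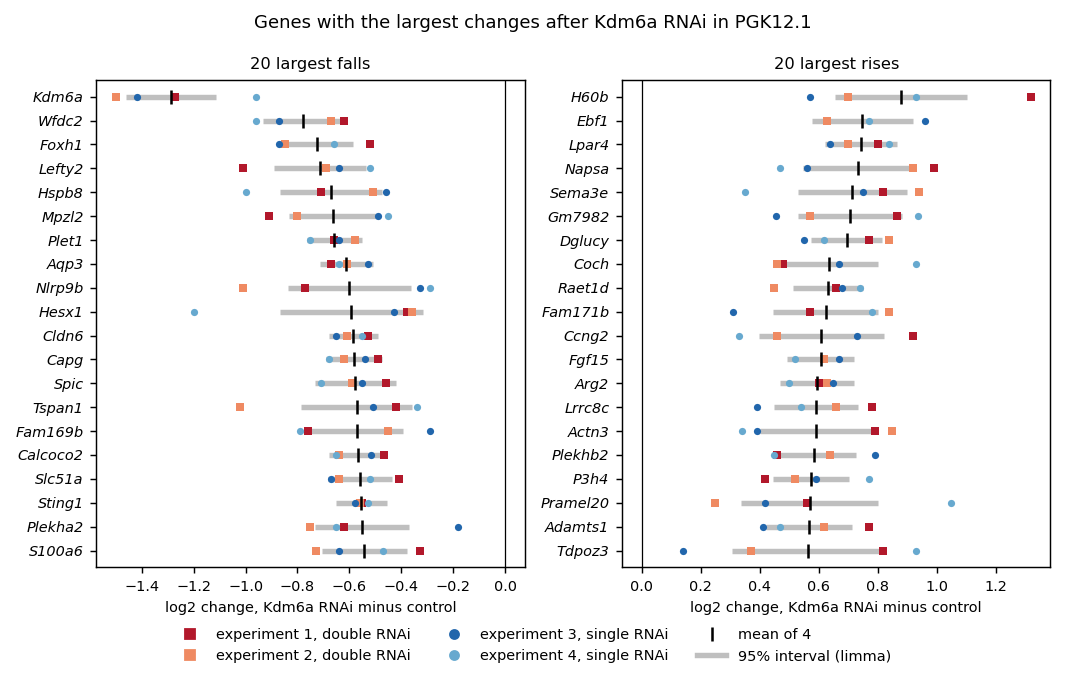
The 20 genes with the largest falls (left) and rises (right) after Kdm6a RNAi in PGK12.1, as the log2 change within each experiment (squares, double RNAi; circles, single RNAi), the mean of 4 (black tick) and the 95% interval of the limma fit (grey bar). Kdm6a at -1.29 lies apart from the next fall, Wfdc2 at -0.78. All points of each gene lie on one side of 0, which the choice of genes required.

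The largest rises were those of H60b, Ebf1 and Lpar4. H60b, a stress-induced ligand of the NK-cell receptor NKG2D, stood at 0.171, 0.236, 0.117 and 0.25 times the array mean after control and 0.422, 0.387, 0.174 and 0.476 after Kdm6a RNAi, a 1.84-fold rise (log2 0.88 ± 0.1, limma SE, n = 4, limma adjusted p = 0.0019). The SD of its 4 changes was 0.329. The pairs ranged from 0.57 to 1.32, and each rose. Raet1d, another NKG2D ligand, rose by 0.66, 0.45, 0.68 and 0.74 (0.63 ± 0.053, adjusted p = 0.000536). Both belong to families of close copies whose probe sets can share signal, so which copy rose is uncertain. Lpar4, an X-linked receptor for lysophosphatidic acid, went from 0.584, 0.562, 0.754 and 0.524 to 1, 0.921, 1.18 and 0.939 (0.75 ± 0.054, adjusted p = 0.000447), higher in each pair. Fgf15, a secreted FGF of the epiblast and neural tube, went from 0.956, 0.926, 1.16 and 1.63 to 1.45, 1.44, 1.85 and 2.35 (0.61 ± 0.051, adjusted p = 0.000536), with changes of 0.52 to 0.67. Ebf1, the early B-cell transcription factor, rose by 0.75 (adjusted p = 0.00115), Sema3e, a secreted semaphorin, by 0.72, Napsa, an aspartic protease, by 0.74, Dglucy, a mitochondrial D-glutamate cyclase, by 0.70, and Coch, an extracellular matrix protein, by 0.64. Ccng2, an atypical cyclin linked to cell cycle arrest, rose by 0.92, 0.46, 0.73 and 0.33 in the 4 experiments (mean 0.61, adjusted p = 0.00734). Lrrc8c, a subunit of volume-regulated anion channels (0.59), Actn3, an alpha-actinin (0.59), Adamts1, a secreted metalloprotease (0.57), Fam171b (0.63), Plekhb2 (0.59), P3h4 (0.58), Gm7982 (0.71) and Pramel20 (0.57) completed the 20 largest rises together with Arg2 and Tdpoz3, described with the 2-cell-stage genes. Of the 20, 19 passed in all 4 fits without 1 experiment, the exception being Tdpoz3.

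**Figure D2:**
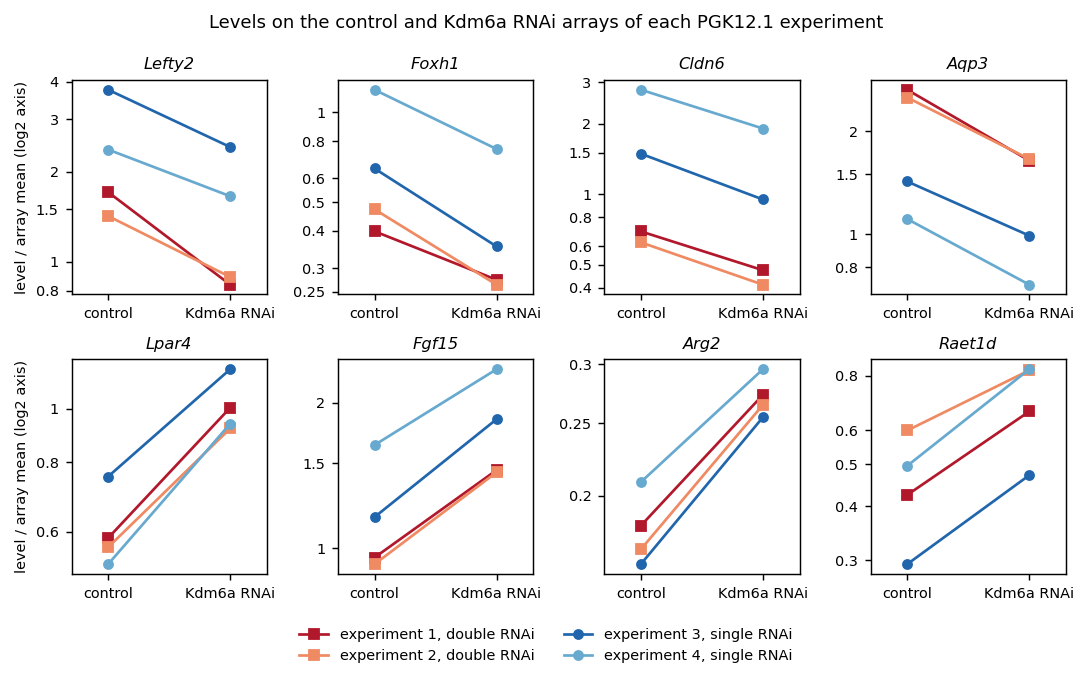
Levels of 8 genes, 4 of those that fell (top) and 4 of those that rose (bottom), on the control and Kdm6a RNAi arrays of each PGK12.1 experiment, in multiples of the array mean on a log2 axis. Lines join the arrays of one experiment: all 4 lines fall in each top panel and rise in each bottom panel, while the starting levels differ between experiments. The genes were taken from those that kept one direction in all 4 experiments.

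To show what the genes looked like at their starts, promoter sequences (250 bases before to 50 after the start, RefSeq, mouse build GRCm38.p6, the first start listed per gene) were matched to 12088 of the 15340 tested genes, 249 of the 323 lower and 439 of the 568 higher. They are printed 5′ to 3′ on the strand of the gene for the 4 largest falls and 4 largest rises, Kdm6a aside, that had an entry, with every CG dinucleotide in capitals. The largest falls first:
Wfdc2: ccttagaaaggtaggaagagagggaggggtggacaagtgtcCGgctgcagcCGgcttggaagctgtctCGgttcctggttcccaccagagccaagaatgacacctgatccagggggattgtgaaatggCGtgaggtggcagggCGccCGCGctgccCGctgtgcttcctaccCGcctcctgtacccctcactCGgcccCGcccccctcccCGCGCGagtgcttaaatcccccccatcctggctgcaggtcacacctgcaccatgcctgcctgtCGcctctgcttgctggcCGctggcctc
Hspb8: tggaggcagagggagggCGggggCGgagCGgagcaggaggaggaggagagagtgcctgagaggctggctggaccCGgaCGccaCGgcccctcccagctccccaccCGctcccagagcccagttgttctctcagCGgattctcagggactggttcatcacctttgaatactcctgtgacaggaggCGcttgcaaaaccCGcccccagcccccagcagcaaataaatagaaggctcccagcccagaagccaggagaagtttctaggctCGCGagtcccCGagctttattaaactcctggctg
Plet1: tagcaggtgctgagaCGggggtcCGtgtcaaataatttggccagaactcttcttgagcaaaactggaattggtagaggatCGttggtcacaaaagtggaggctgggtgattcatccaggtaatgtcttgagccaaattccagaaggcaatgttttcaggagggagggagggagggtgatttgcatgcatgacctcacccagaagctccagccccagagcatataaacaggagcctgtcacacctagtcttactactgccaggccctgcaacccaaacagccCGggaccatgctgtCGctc
Aqp3: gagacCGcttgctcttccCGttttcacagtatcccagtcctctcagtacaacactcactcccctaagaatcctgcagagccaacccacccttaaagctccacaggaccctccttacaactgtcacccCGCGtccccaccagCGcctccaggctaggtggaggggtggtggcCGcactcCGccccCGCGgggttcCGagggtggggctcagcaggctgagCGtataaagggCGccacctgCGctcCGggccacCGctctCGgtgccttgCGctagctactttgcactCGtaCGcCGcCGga
The largest rises:
Ebf1: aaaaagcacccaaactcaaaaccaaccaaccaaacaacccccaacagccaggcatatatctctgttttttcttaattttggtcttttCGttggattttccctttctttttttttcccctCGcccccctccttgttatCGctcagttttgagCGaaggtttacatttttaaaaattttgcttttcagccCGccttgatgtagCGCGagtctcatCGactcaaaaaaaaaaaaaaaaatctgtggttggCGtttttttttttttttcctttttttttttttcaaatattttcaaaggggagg
Lpar4: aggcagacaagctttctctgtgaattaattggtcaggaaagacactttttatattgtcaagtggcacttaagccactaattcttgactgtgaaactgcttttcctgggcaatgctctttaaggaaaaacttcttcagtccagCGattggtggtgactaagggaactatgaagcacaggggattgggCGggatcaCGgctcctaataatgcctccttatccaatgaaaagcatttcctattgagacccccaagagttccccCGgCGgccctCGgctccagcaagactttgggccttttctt
Sema3e: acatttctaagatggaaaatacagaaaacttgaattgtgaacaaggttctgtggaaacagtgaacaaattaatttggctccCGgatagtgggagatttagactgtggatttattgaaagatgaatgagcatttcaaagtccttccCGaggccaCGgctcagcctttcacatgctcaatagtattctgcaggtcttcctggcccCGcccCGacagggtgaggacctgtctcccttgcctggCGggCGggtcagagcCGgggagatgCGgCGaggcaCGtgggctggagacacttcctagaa
Dglucy: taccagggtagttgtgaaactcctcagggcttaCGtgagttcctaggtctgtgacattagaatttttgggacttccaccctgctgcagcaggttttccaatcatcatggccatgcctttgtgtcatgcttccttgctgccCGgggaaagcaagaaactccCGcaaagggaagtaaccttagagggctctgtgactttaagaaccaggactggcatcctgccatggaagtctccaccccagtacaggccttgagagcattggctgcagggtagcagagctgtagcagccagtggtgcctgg

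The windows lay at chr2:164562465-164562764 (Wfdc2, plus strand), chr5:116422815-116423114 (Hspb8, minus strand), chr9:50494275-50494574 (Plet1, plus strand), chr4:41098134-41098433 (Aqp3, minus strand), chr11:44617850-44618149 (Ebf1, plus strand), chrX:106920375-106920674 (Lpar4, plus strand), chr5:14025026-14025325 (Sema3e, plus strand) and chr12:100778807-100779106 (Dglucy, plus strand). They held 16, 13, 5 and 21 CG dinucleotides in Wfdc2, Hspb8, Plet1 and Aqp3 and 9, 6, 11 and 3 in Ebf1, Lpar4, Sema3e and Dglucy, and all but Aqp3 lay below the median of 19 over all matched promoters. Over the whole sets the genes that fell had fewer CG dinucleotides, with a median of 14, and those that rose a median of 20. The share of promoters with an observed over expected CG ratio of at least 0.6 was 44.6% among the lower genes, 67.7% among the higher and 64.7% among all matched genes, while the median GC content was 60%, 62.3% and 60.3%. Of letter motifs searched on both strands, TATAAA (the TATA box) was in 10.4% of lower, 8.88% of higher and 7.97% of all promoters, CCAAT in 35.3%, 34.9% and 37.8%, GGGCGG (the GC box) in 61%, 65.4% and 60.3%, CACGTG (an E box) in 6.43%, 10.3% and 9.82%, and ATTTGCAT (the octamer bound by POU factors) in 1.61%, 2.05% and 1.4%. Plet1 was the only one of the 8 with the octamer. These shares are descriptions, and a match is not a binding site.

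Pathways and cell type groups were described by lists of member genes, whose counts are read against the background of 2.11% lower and 3.7% higher. The lists were written with earlier results of these data known. Genes already seen to change could enter them, so a share above the background is a description and not independent evidence. The lists that stood farthest above it for rises were the 2-cell-stage genes (7 of 12 tested), primed pluripotency (4 of 17), NKG2D ligands and MHC class I (3 of 14), the Hedgehog pathway (3 of 15) and the cyclins and CDK regulators (8 of 42). For falls they were claudins, cadherins and junctions (7 of 36), the Nodal pathway (3 of 16), basement membrane and matrix receptors (4 of 31), trophoblast and imprinted genes (2 of 16 and 4 of 32). For the Nodal, 2-cell-stage, junction and cyclin lists all called members are named, beyond the rule for named genes, after their values were seen.

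**Figure D3:**
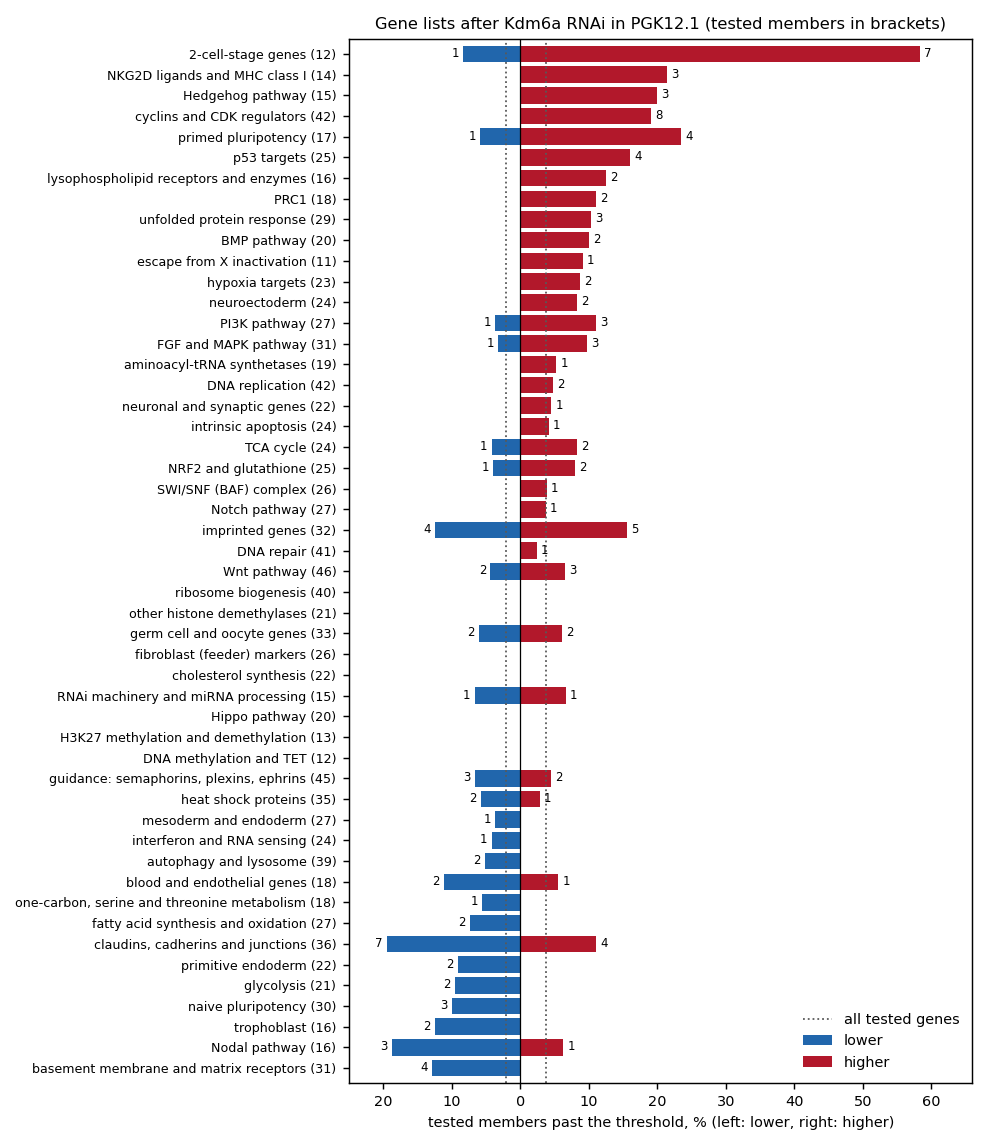
Percent of the tested members of each gene list with at least 10 tested members that were lower (left, blue) or higher (right, red) after Kdm6a RNAi in PGK12.1, with the number called beside each bar and the number tested in brackets, ordered by the percent higher minus the percent lower. Dotted lines mark all tested genes, 2.11% lower and 3.7% higher, and the 2-cell-stage list at the top is the only one with most members higher. The lists were written with earlier results of these data known.

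Nodal is the TGF-beta signal that ES cells make and respond to, and FOXH1 is the forkhead factor that takes phosphorylated SMAD2 and SMAD3 to its target genes. Of 16 tested pathway members 3 fell and 1 rose, and the list's median was 0.00375 (-0.01 with arrays centred on their median and -0.02 after quantile normalization). Foxh1 went from 0.399, 0.473, 0.648 and 1.19 times the array mean to 0.275, 0.265, 0.355 and 0.752, with log2 changes of -0.52, -0.85, -0.87 and -0.66 (mean -0.73 ± 0.061, limma adjusted p = 0.000536). Lefty2, a secreted inhibitor of Nodal and one of its targets, went from 1.71, 1.42, 3.77 and 2.38 to 0.839, 0.89, 2.42 and 1.66, with changes of -1.01, -0.69, -0.64 and -0.52 (mean -0.72 ± 0.079, adjusted p = 0.00172). All 8 pairs of these genes fell, and the level of Foxh1 fell by 39.5% and that of Lefty2 fell by 39.1%. Lefty1, the second such inhibitor, fell by 0.27, 0.5, 0.45 and 0.24 (mean -0.37, adjusted p = 0.0092). Skil, a repressor of SMAD signalling, rose by 0.28 (adjusted p = 0.00591). The ligand and the rest of the relay were not called: Nodal itself changed by 0.12 (adjusted p = 0.122), its co-receptor Tdgf1 by 0.0025, Gdf3 by -0.07, the receptors Acvr1b, Acvr2a and Acvr2b by 0.04, 0.02 and 0.02, Smad2, Smad3 and Smad4 by 0.10, -0.04 and 0.09, and the processing enzymes Furin and Pcsk6 by -0.04 and -0.14. All 4 called members passed in each fit without 1 experiment.

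Genes of the 2-cell-stage embryo, active when the zygotic genome switches on and in a rare share of ES cells, had 12 tested members of 24 listed, of which 7 rose and 1 fell. The list's median log2 change was 0.31 (0.17, 0.23, 0.13 and 0.42 in experiments 1 to 4) and 11 of the 12 were higher in all 4 experiments. Arg2, the mitochondrial arginase, went from 0.182, 0.17, 0.162 and 0.208 times the array mean to 0.273, 0.265, 0.255 and 0.295 (0.60 ± 0.056, limma adjusted p = 0.00089), higher in each pair. Tdpoz3, of a multi-copy family of BTB-domain genes, rose by 0.82, 0.37, 0.14 and 0.93 (mean 0.57, adjusted p = 0.0219), and the call was lost without experiment 1 (0.0765) or 4 (0.0771). The other members that rose were Zfp352 (0.37, adjusted p = 0.0352), Tcstv3 (0.35, 0.00495), Tmem92 (0.35, 0.017), Usp17lc (0.34, 0.0123) and Tdpoz2 (0.28, 0.012). Leaving out 1 experiment ended the call of Zfp352 (adjusted p 0.0904, 0.0845 and 0.0771 without 1, 2 and 4), Tmem92 (0.0786 and 0.0583 without 2 and 4) and Usp17lc (0.0584 and 0.0541 without 2 and 4), and Arg2, Tcstv3 and Tdpoz2 kept theirs. Tdpoz, Usp17l and Tcstv genes have near-identical copies, so these rises may share signal and are not independent. The member that fell was Calcoco2, a receptor of selective autophagy, from 1.84, 2.25, 3.24 and 1.24 to 1.3, 1.49, 2.27 and 0.789 (-0.57 ± 0.049, adjusted p = 0.000601). Eif1a (0.05), Cwc15 (0.05), Zfp809 (0.05) and Kdm5b (0.06) were not called.

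Junctions that join epithelial and ES cells had members in both directions. Of 36 tested claudins, cadherins, desmosomal genes and their regulators 7 fell and 4 rose, and the median was -0.08, with 14 lower and 8 higher in all 4 experiments. Cldn6, a claudin of tight junctions, went from 0.695, 0.624, 1.49 and 2.79 times the array mean to 0.475, 0.412, 0.95 and 1.91, with log2 changes of -0.53, -0.61, -0.65 and -0.55 (-0.59 ± 0.042, limma adjusted p = 0.000447), and the level fell by 33.3% with changes that varied little between the pairs. The claudins Cldn4, Cldn9 and Cldn7 changed by -0.33 (adjusted p = 0.0137), -0.25 (0.02) and -0.23 (0.0397), the desmosomal Dsp and Dsg2 by -0.33 (0.0248) and -0.23 (0.0234), and Esrp2, an epithelial splicing factor, by -0.39 (0.00688). Those that rose were Cdh2, the cadherin of neural and mesenchymal cells, by 0.38 (adjusted p = 0.00688), Ocln, another tight junction protein, by 0.33 (0.0158), Grhl2, an epithelial transcription factor, by 0.29 (0.00646), and Cldn12 by 0.19 (0.0327). Cdh1, the main cadherin of ES cells, was not called (-0.10, adjusted p = 0.205). Cldn6, Esrp2, Cldn4, Cdh2 and Grhl2 passed without any 1 experiment, while Dsp did not without 1, 2 or 4 (0.0598, 0.0733 and 0.0547), Cldn9 without 3 or 4 (0.0696 and 0.0709), Ocln without 2 or 3 (0.0571 and 0.053), and Cldn7, Dsg2 and Cldn12 in any of the 4 fits. In the neighbouring list of basement membrane genes and matrix receptors 4 of 31 fell and 0 rose (median -0.04). Sparc, a collagen-binding matrix protein, fell by 0.44, 0.48, 0.4 and 0.51 (mean -0.46 ± 0.046, adjusted p = 0.00115), and Agrn, a proteoglycan of basement membranes, by 0.4, 0.46, 0.51 and 0.44 (mean -0.45 ± 0.05, adjusted p = 0.00162). Both kept their calls without any 1 experiment. The integrin Itga3 (-0.28, adjusted p = 0.0186) lost its call without 2, 3 or 4 (0.0569, 0.055 and 0.0611), and the laminin Lamb1 (-0.27, 0.0156) without 2 or 3 (0.0736 and 0.0574). None of 44 tested collagens was called, beside 2.11% lower and 3.7% higher over all tested genes.

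**Figure D4:**
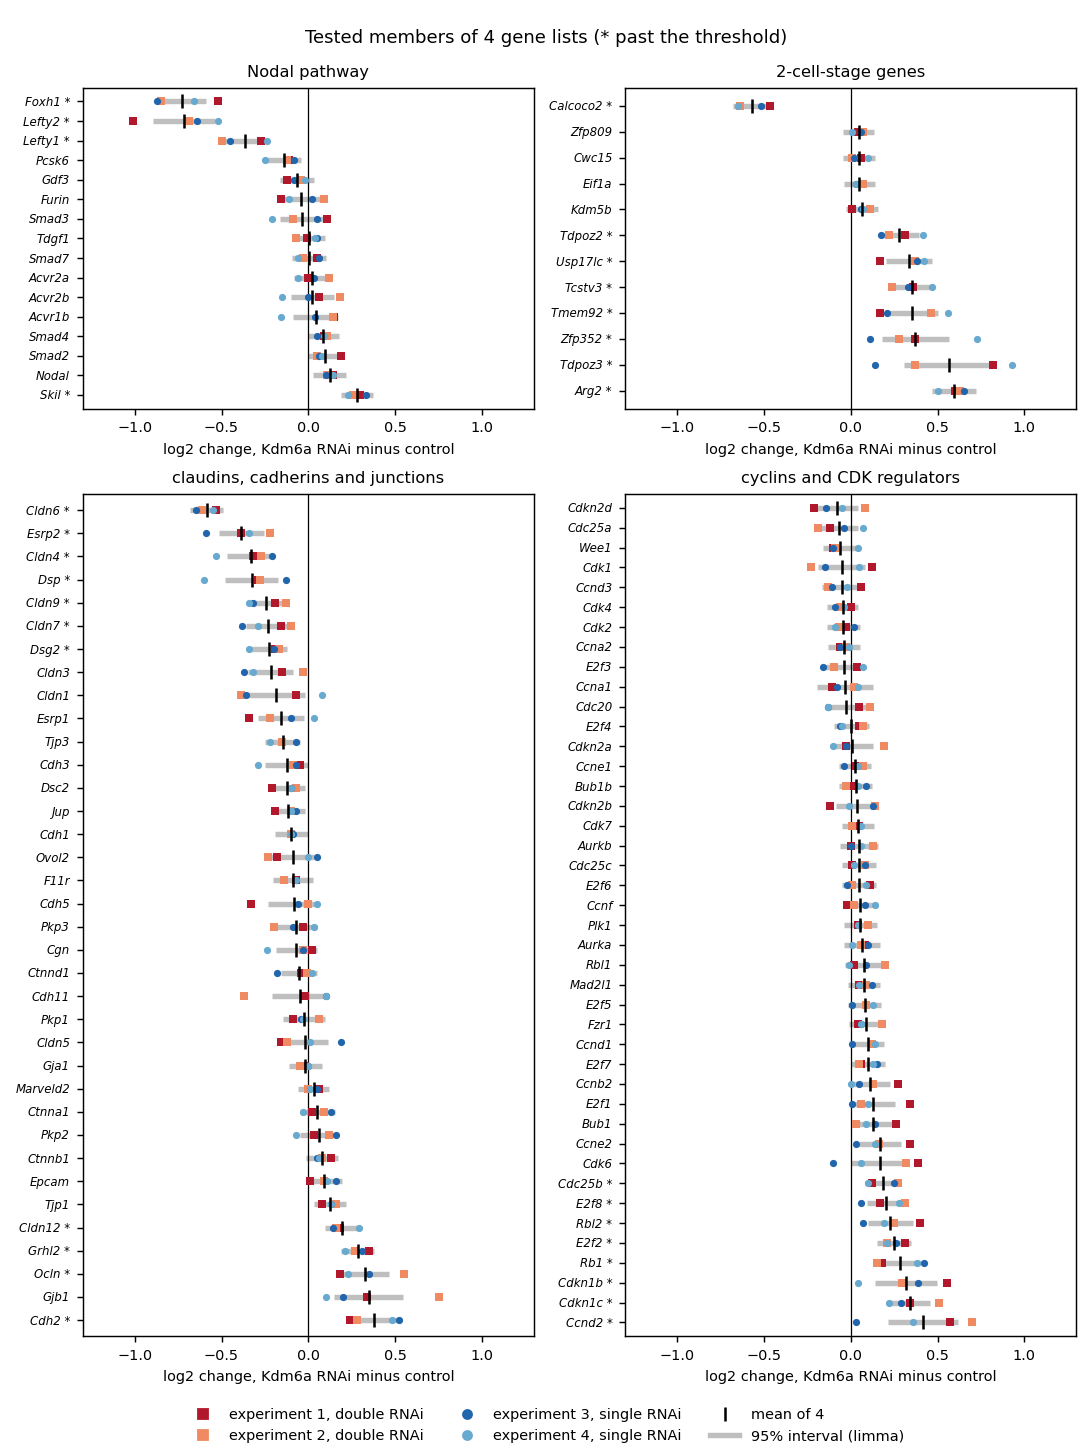
Log2 change within each PGK12.1 experiment (squares, double RNAi; circles, single RNAi), mean of 4 (tick) and 95% limma interval (bar) for every tested member of the Nodal, 2-cell-stage, junction and cyclin lists, sorted by the mean, with * for genes past the threshold. The 2-cell-stage members split into 7 genes at 0.28 or above, 4 near 0 and Calcoco2 at -0.57. Of 42 cyclins and CDK regulators 8 were called higher and 0 lower, beside 3.7% and 2.11% of all tested genes.

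Of 30 tested naive pluripotency genes 3 fell and 0 rose (median -0.01), which was 10% lower beside 2.11% of all tested genes. Nanog changed by -0.02, Pou5f1 by -0.01, Klf4 by -0.04, Esrrb by -0.03 and Zfp42 by -0.01, none called (limma adjusted p of 0.695 or above), and the falls were Dppa3, Utf1 and Tcl1 at -0.31, -0.22 and -0.17, of which none passed in all 4 fits without 1 experiment (highest adjusted p 0.103, 0.0943 and 0.112, each without experiment 2). Of 17 primed pluripotency genes, those of the post-implantation epiblast, 4 rose and 1 fell: Fgf15, Cdh2 and Grhl2 (above), Lef1, the Wnt-pathway transcription factor, at 0.41 (adjusted p = 0.0281, and 0.0877, 0.0835 and 0.0772 without experiments 2, 3 and 4), and Car14, a carbonic anhydrase, at -0.46 ± 0.049 (adjusted p = 0.00155). The commonly used primed genes Fgf5 (0.21, adjusted p = 0.163), Otx2 (0.04) and Dnmt3b (-0.26, adjusted p = 0.064) were not called.

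Of 16 tested trophoblast genes, whose lineage forms the placenta, 2 fell and 0 rose, beside 2.11% lower and 3.7% higher over all tested genes. In all 4 experiments 7 were lower and 0 higher, beside 1633 and 2495 of the 15340 tested genes. The list's median was -0.11 (-0.12 with arrays centred on their median, -0.11 after quantile normalization). Beside Plet1 the gene that fell was Ascl2, an imprinted factor needed for the placenta, by 0.48, 0.49, 0.17 and 0.21 (mean -0.34, limma adjusted p = 0.014, and 0.0528 and 0.0677 without experiments 1 and 2). The factors that define the lineage were not called, with Cdx2 at -0.02, Eomes at -0.06 and Tead4 at -0.25 (adjusted p = 0.0716). Among the other lineages, primitive endoderm had 2 of 22 lower (Sparc and Lamb1), with Gata4, Gata6 and Sox17 at 0.02, 0.08 and -0.06. Neuroectoderm had 2 of 24 higher, En2, a homeobox gene of the midbrain and hindbrain, at 0.43 ± 0.057 (adjusted p = 0.00425) and Ncam1 at 0.21 (0.0393, lost without experiments 1, 2 or 3 at 0.126, 0.105 and 0.128). Of 27 mesoderm and endoderm genes 1 fell, Myl7, a myosin light chain of the atrium, by 0.62, 0.1, 0.37 and 0.7 (mean -0.45, adjusted p = 0.0171, and 0.0615 and 0.0655 without experiments 1 and 4). Of 18 blood and endothelial genes 2 fell (Gata1 at -0.25 and Fli1 at -0.21) and 1 rose (Cd34 at 0.19), none in all 4 fits without 1 experiment. Of 26 fibroblast genes, which mark leftover feeders, 0 were called, with Twist1 (0.23, adjusted p = 0.0507) and Thbs1 (0.24, 0.0669) nearest. Beside the shares over all tested genes, 0 of 26 lies close to the background.

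Of the other signalling pathways Wnt, FGF and PI3K had called members in both directions, beside 2.11% lower and 3.7% higher over all tested genes. In the Wnt pathway 3 of 46 rose and 2 fell (median -0.02). Notum, a secreted enzyme that inactivates Wnt proteins, rose by 0.62, 0.52, 0.30 and 0.34 in the 4 experiments (mean 0.45 ± 0.058, limma adjusted p = 0.00377), and Porcn, the X-linked enzyme that adds the lipid Wnt proteins need for secretion, by 0.48, 0.46, 0.41 and 0.34 (mean 0.42 ± 0.057, adjusted p = 0.00433). Lgr4, the R-spondin receptor that strengthens Wnt signals, fell by 0.51, 0.53, 0.32 and 0.22 (mean -0.40, adjusted p = 0.0064), and Sfrp1, a secreted Wnt antagonist, changed by -0.38 (0.00937), the latter outside the rule for named genes. In the FGF and MAPK pathway 3 of 31 rose and 1 fell (median 0.06): Fgf15 (above), Fgf17, another secreted FGF, at 0.40 ± 0.045 (adjusted p = 0.0019), Spred1, an inhibitor of RAS signalling, at 0.25 (0.046, and 0.143, 0.168 and 0.0992 without experiments 1, 2 and 4), and Dusp9, an X-linked phosphatase of ERK, at -0.34 (0.00784). In the PI3K pathway 3 of 27 rose and 1 fell. Prex2, a RAC exchange factor, rose by 0.67, 0.52, 0.39 and 0.52 (mean 0.53 ± 0.051, adjusted p = 0.00107), and the kinase Sgk3 fell by 0.27, 0.35, 0.22 and 0.27 (mean -0.28, 0.00811). Pik3ca (0.23) and Foxo3 (0.22) rose too, with adjusted p of 0.0955 or above for Pik3ca and 0.106 or above for Foxo3 without experiments 1, 2 or 3.

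Of 15 Hedgehog pathway genes 3 rose and 0 fell (median 0.04), Gli1, Ptch1 and Gli2, and Gli1 and Ptch1 are the usual readouts of an active pathway. Ptch1, the receptor, rose by 0.36, 0.42, 0.24 and 0.18 (mean 0.30, limma adjusted p = 0.00939) and passed without any 1 experiment. Gli1 rose by 0.56, 0.44, 0.16 and 0.16 (mean 0.33, adjusted p = 0.0286, and 0.0904 and 0.116 without experiments 1 and 2) and Gli2 by 0.26, 0.30, 0.10 and 0.22 (mean 0.22, 0.0248, and 0.0812, 0.107 and 0.0702 without 1, 2 and 4). In both double RNAi experiments Gli1 and Ptch1 changed more than in either single RNAi experiment, a difference that was not tested. In the BMP pathway 2 of 20 rose, Id2, an inhibitor of bHLH factors (0.36, adjusted p = 0.0243), and Smad5 (0.21, 0.0394), neither in all 4 fits without 1 experiment (highest adjusted p 0.0888 without experiment 2 and 0.124 without experiment 1). In the Notch pathway 1 of 27 rose, the coactivator Maml1 (0.23, 0.0225, and 0.0785 and 0.0972 without experiments 1 and 2), and of 20 Hippo pathway genes 0 were called. With 2.11% lower and 3.7% higher over all tested genes, the Notch and Hippo counts lie close to the background. Of 16 lysophospholipid receptors and enzymes Lpar4 and Lpar6 rose (0.22 for the latter, adjusted p = 0.0331, and 0.112, 0.107 and 0.0817 without experiments 1, 2 and 3).

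The list of cyclins, CDKs, their inhibitors and E2F and RB family genes leaves out Ccng2 (above) and Ccng1 (below), which both rose. Of its 42 tested members 8 rose and 0 fell, and the median was 0.06. The share higher was 19%, beside 3.7% of all tested genes. With 2.11% of all tested genes lower, 0 of 42 lies close to that share. In all 4 experiments 20 were higher and 1 lower, beside 2495 and 1633 of the 15340 tested genes. The genes that rose included brakes of the cycle: the CDK inhibitors Cdkn1c, at 0.34, 0.51, 0.29 and 0.22 (mean 0.34 ± 0.052, limma adjusted p = 0.00695), and Cdkn1b, at 0.56, 0.30, 0.39 and 0.04 (mean 0.32, 0.0466), and the pocket proteins Rb1 (0.28, 0.019) and Rbl2 (0.23, 0.0496). They also included drivers: Ccnd2, a D-type cyclin, at 0.57, 0.70, 0.03 and 0.36 (mean 0.42, 0.0286), E2f2 (0.25, 0.0125) and Cdc25b, a CDK-activating phosphatase (0.19, 0.0478), beside E2f8, a repressor E2F (0.21, 0.0458). Cdkn1c and E2f2 passed without any 1 experiment. Without experiment 1 the adjusted p was 0.0976 for Ccnd2, 0.143 for Cdkn1b, 0.153 for Rbl2, 0.0926 for E2f8 and 0.0765 for Cdc25b; without experiment 2 it was 0.11, 0.123, 0.148, 0.168 and 0.171. Rb1 lost its call without 3 or 4 (0.0656 and 0.0723), Cdkn1b and Cdc25b without 3 (0.128 and 0.142), and Ccnd2, Rbl2, E2f8 and Cdc25b without 4 (0.0765, 0.097, 0.126 and 0.0625). Targets of p53 had 4 of 25 higher and 0 lower (median 0.08): Trp53inp1, a p53-induced stress protein, at 0.44, 0.45, 0.36 and 0.18 (mean 0.36, adjusted p = 0.00591), and Xpc (0.25), Plk2 (0.23) and Ccng1 (0.20), of which only Trp53inp1 passed in all 4 fits without 1 experiment (highest adjusted p 0.119, 0.1 and 0.0822 for the other 3, each without experiment 2). Of 42 DNA replication genes 2 rose, Rfc4 at 0.25 and Orc4 at 0.22, neither in all 4 such fits.

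Imprinted genes, expressed from one parental allele, changed in both directions. Of 32 tested 5 rose and 4 fell (median 0.05). Phlda2, a maternally expressed gene that restrains placental growth, fell by 0.48, 0.4, 0.66 and 0.51 (mean -0.51 ± 0.052, limma adjusted p = 0.00115). Its neighbour on chromosome 7, Cdkn1c, which is also maternally expressed, rose (above), and so the pair moved in opposite directions. Sgce, a sarcoglycan, rose by 0.46, 0.61, 0.49 and 0.19 (mean 0.44 ± 0.063, adjusted p = 0.00569). Plagl1, a zinc finger gene (-0.36, adjusted p = 0.0183, 0.0707 without experiment 2), Ascl2 (above) and Sfmbt2 (-0.31, 0.00879) fell, and Nnat, neuronatin (0.35, 0.0158, 0.0738 without experiment 2), Grb10, a growth-restraining adaptor (0.30, 0.0238, and 0.0596, 0.0734 and 0.0705 without 2, 3 and 4), and Ppp1r9a (0.25, 0.0314, and 0.102, 0.125 and 0.0583 without 1, 2 and 4) rose. Sfmbt2, Grb10 and Ppp1r9a lie outside the rule for named genes. The arrays do not tell parental alleles apart.

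Among ligands of NKG2D and MHC class I genes 3 of 14 rose and 0 fell (median 0.03), H60b, Raet1d and H2-Q4, the last by 0.18 (limma adjusted p = 0.0441, and 0.0583 to 0.137 in the fits without 1 experiment). The list of interferon and RNA-sensing genes had 1 of 24 called, Oas2, lower at -0.28 (adjusted p = 0.00951). Sting1 (above) and Trim25, a TRIM protein (-0.22, limma adjusted p = 0.0359), were lower too but lie outside that list. Both arms of each experiment received siRNA. Of the RNAi machinery itself, Ago1, which loads small RNAs, fell by 0.55, 0.55, 0.09 and 0.48 (mean -0.42, adjusted p = 0.013, and 0.0649 and 0.0557 without experiments 2 and 4), and Tnrc6c, a GW182 partner of Argonaute, rose by 0.39, 0.44, 0.31 and 0.21 (mean 0.34, 0.00556), 2 of 15 members.

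Neither the tested partners of KDM6A nor the writers, readers and erasers of its mark were called. Over all tested genes 2.11% were lower and 3.7% higher, so 0 calls in lists of this size lie close to the background. Of the 9 tested partners in the KMT2C and KMT2D complexes the changes ran from -0.07 (Wdr5, adjusted p = 0.388) to 0.10 (Ash2l, adjusted p = 0.199). Of 13 genes that write, read or remove H3K27 methylation 0 were called, with Ezh2 at 0.05, Eed at 0.0025, Suz12 at -0.02 and Aebp2 at -0.15 (adjusted p = 0.148). Kdm6b, the other H3K27 demethylase, changed by 0.18, 0.16, 0.01 and 0.04 (mean 0.10, 95% interval -0.01 to 0.20, adjusted p = 0.245). Uty, the Y-linked relative of Kdm6a that a female line lacks, was counted among these 13 but lay at 0.0198 to 0.0371 of the array mean on the PGK12.1 arrays, under the minimum of 0.1, which its mean over 12 arrays passed only through WD44, so its values in PGK12.1 are background. Of 21 histone demethylases on a list that leaves out Kdm2b, which was placed with PRC1 and rose, 0 were called, with Kdm1b nearest at 0.17 (adjusted p = 0.0572), and of 12 DNA methylation and TET genes 0. Of 18 PRC1 genes 2 rose, Yaf2 at 0.30, 0.44, 0.22 and 0.21 (mean 0.29, adjusted p = 0.0104) and Kdm2b at 0.20, 0.25, 0.20 and 0.17 (mean 0.21, 0.02, and 0.0559, 0.0879 and 0.0574 without experiments 1, 2 and 3), and of 26 SWI/SNF genes 1, Brd9 (0.19, 0.0471, in none of the 4 fits without 1 experiment). The smallest change called anywhere was 0.16, so a missed call does not show that smaller shifts were absent.

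Calls lay on every autosome and on the X chromosome. On autosomes the share lower ran from 0.916% (chromosome 17) to 3.03% (chromosome 3) and the share higher from 2.22% (chromosome 8) to 6.35% (chromosome 3). Of 501 tested X-linked genes other than Kdm6a 19 fell and 36 rose, 3.79% and 7.19%, and their median was 0.02. Of these, 9 and 13 passed in all 4 fits without 1 experiment. Beside Lpar4 the largest were Xpnpep2, a membrane aminopeptidase, at -0.42, -0.83, -0.36 and -0.51 (mean -0.53, limma adjusted p = 0.00425), Taf9b, a TFIID-related subunit, at 0.65, 0.62, 0.26 and 0.58 (mean 0.53, 0.00433), and Pof1b, an actin-binding protein, at 0.29, 0.51, 0.92 and 0.34 (mean 0.52, 0.0121, 0.0516 without experiment 2). Foxr2, a forkhead gene, changed by -0.74, -0.19, -0.66 and -0.42 (mean -0.50, 0.00944). Of 15 tested Rhox genes Rhox9 (-0.49, 0.00304) and Rhox5 (-0.31, 0.00529) fell. Of 11 genes known to escape X inactivation, as Kdm6a does, 1 rose, the mitochondrial carbonic anhydrase Car5b (0.29, 0.0262, in 1 of the 4 fits without 1 experiment). The largest mean change among the 11, 0.50, was that of another gene, which was not called.

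In the WD44 line no gene passed the threshold. Kdm6a was lower there by 0.94 and 0.92 on the log2 scale in the 2 experiments, and 0% of the 15340 genes were called, Kdm6a included (limma adjusted p = 0.131), with 2464 at an unadjusted p under 0.05. The difference between the 2 lines' effects was also called for 0% of genes, with 3222 at an unadjusted p under 0.05, so no gene was shown to respond in one line and not in the other. The smallest adjusted p of that difference was 0.0559, for Cldn6 (PGK12.1 -0.59, WD44 0.09 and 0.08) and Lpar4 (0.75, WD44 0.05 and -0.19), followed at 0.0566 by, among others, Wfdc2 (WD44 -0.06 and 0.22), Aqp3 (-0.13 and 0.01), Fgf15 (0.11 and -0.13) and Arg2 (0.04 and -0.27). With the minimum level raised from 0.1 to 0.25 the difference was called for 272 genes and with trend and robust moderation for 543, so this count rests on the setting. Genes lower in PGK12.1 were lower in both WD44 experiments for 180 of 323 (55.7%, against 33.1% of all tested genes), and their WD44 median was -0.07. Genes higher in PGK12.1 were higher in both WD44 experiments for 156 of 568 (27.5%, against 31.3% of all), and their WD44 median was -0.01 beside -0.005 over all genes. Genes that fell in PGK12.1 and were also lower in both WD44 experiments included Sting1 (WD44 -0.27 and -0.43), Spic (-0.23 and -0.67), Calcoco2 (-0.23 and -0.35), Nlrp9b (-0.24 and -0.39), Plekha2 (-0.34 and -0.34) and Zp3, an oocyte coat protein (-0.31 in PGK12.1, limma adjusted p = 0.00556, and -0.37 and -0.35 in WD44). The 2-cell-stage list had a WD44 median of -0.03.

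**Figure D5:**
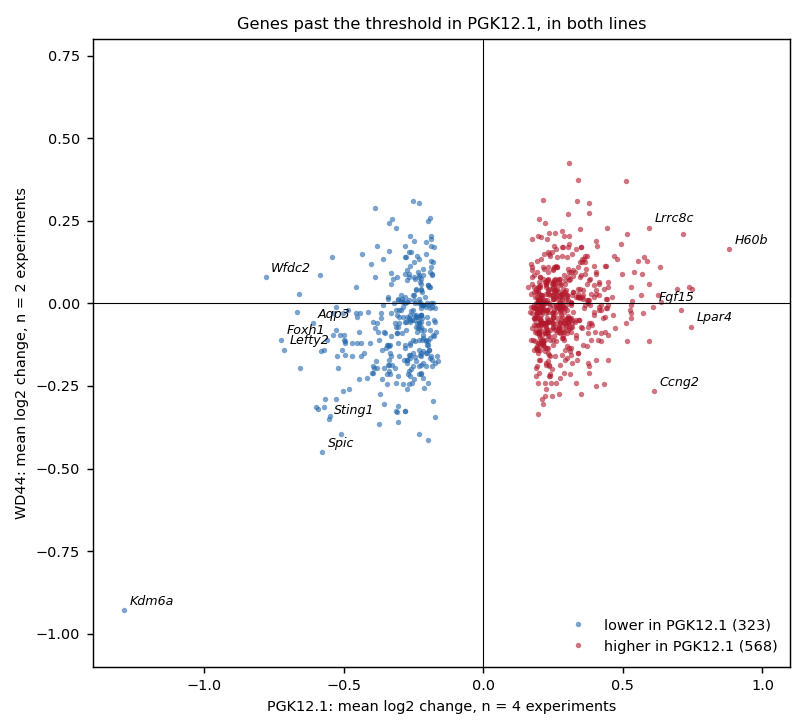
Mean log2 change in PGK12.1 (4 experiments, horizontal) against that in WD44 (2 experiments, vertical) for the 323 genes lower (blue) and 568 genes higher (red) in PGK12.1. Kdm6a lies low in both lines, the other lower genes spread below and above 0 in WD44 with a median of -0.07, and the higher genes spread around a WD44 median of -0.01; the empty band at the centre is set by the threshold in PGK12.1.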

How the data were processed

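RNA of 12 ES cell cultures was hybridised to arrays of the type Affymetrix Mouse Gene 1.0 ST, and the deposited values are log2 values that the authors made with RMA in Affymetrix Expression Console (its version is not given in the sources used). RMA sets arrays normalized together to 1 distribution, so a shift of most genes in one direction would not show, and the deposited arrays fall into sets of different scale (medians of 6.15 to 6.48 in PGK12.1 experiments 1 to 3, 8.2 and 8.21 in experiment 4, 8.03 to 8.08 in WD44). For that reason changes were taken within an experiment.

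Of 35556 probe sets 21789 had 1 gene symbol, 1621 several and 12146 none in the platform annotation, and the first were named by their symbol. Rhox probe sets were named through the study's own list of 21, of which 13 had no single symbol in the annotation. Values of the 999 genes with several probe sets were averaged, and 19931 of the 19951 symbols matched the RefSeq table of GRCm38.p6. A level is the linear value over the mean of its array, and genes with a mean level of at least 0.1 over the 12 arrays were tested, of which 272, 9 of them called, had a mean under 0.1 on the PGK12.1 arrays alone. limma 3.58.1 in R 4.3.3 (lmFit, eBayes) was fitted to all 12 arrays with the experiment as a block, 1 effect per line (4 residual and 5.65 prior degrees of freedom), two-sided, with Benjamini-Hochberg adjustment over 15340 genes and a threshold of 0.05. The pairing came from the shared number in the labels and the paired tests in the study's methods. Deviations of same-numbered arrays from their group means correlated at 0.828, 0.846, 0.915 and 0.972, which the array scales raise. The fit was tested on simulated data. Its count of calls falls to 0 without the block, and the other alternatives are given in the closing section.

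The 51 gene lists (1466 entries, 1356 measured) and 32 families were written, and the genes to be described chosen, with earlier results of these data known, and lists were described by counts and medians without a test. Named genes were the 20 largest falls and 20 largest rises among called genes that changed the same way in all 4 experiments, up to 4 called members of each list by size, or 2 members with the smallest p where none was called, and Kdm6a, Kdm6b, Uty and Actb. Plots used Python 3.11.15 and its package matplotlib 3.10.9. The number of arrays limits the precision.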

Additional observations from a re-analysis of the deposited data

Results flagged for a closer look

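For 10 of 214 named genes 1 of the 4 PGK12.1 experiments lay far from the other 3 by Dixon's criterion, which chance meets in about 1 in 20 groups of 4. Hesx1 stood at -1.2 on the log2 scale in experiment 4 (-0.38, -0.36, -0.43 and -1.20 in experiments 1 to 4, an order kept for the genes that follow). Ago1 was at -0.09 in experiment 3 (-0.55, -0.55, -0.09 and -0.48) and Klf12, a Krueppel-like repressor, at 0.52 in experiment 3 (0.34, 0.32, 0.52 and 0.33). Klf3 was at 0.19 in experiment 2 (0.28, 0.19, 0.29 and 0.29) and Gpr75, an orphan receptor, at 0.39 in experiment 4 (0.23, 0.20, 0.21 and 0.39). The glutathione synthesis gene Gclc was at 0.08 in experiment 4 (0.24, 0.25, 0.26 and 0.08), Fli1 at -0.09 in experiment 3 (-0.25, -0.24, -0.09 and -0.25) and Cd34 at 0.05 in experiment 1 (0.05, 0.25, 0.24 and 0.23). The demethylase Phf2, not called, was at 0.05 in experiment 1 (0.05, 0.18, 0.20 and 0.19), and the DNA methyltransferase Dnmt3a, not called, at -0.24 in experiment 1 (-0.24, -0.13, -0.13 and -0.13). Beyond the named genes, 64 probe sets without a gene symbol passed the threshold when all probe sets were tested, 28 lower and 36 higher of 7159 tested or 0.894%, and no gene was named from them.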

How the results depend on the processing

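The pairing of arrays by experiment carried the calls. With no replicate block 0 genes were lower and 0 higher, and Kdm6a, at the same -1.288, had an adjusted p of 1. The methods' t-test on the pairs gave 0 and 0 after adjustment (Kdm6a -1.288, adjusted p 0.153) and 930 lower and 1517 higher unadjusted. Lower and higher genes numbered 65 and 117 with the double and 58 and 43 with the single RNAi experiments alone, where 42.6% of calls were higher in place of 63.7%, 183 and 273 without a minimum level, 206 and 332 with the PGK12.1 arrays alone, 544 and 1098 with trend and robust moderation, and 442 and 931 with a minimum of 0.25. Leaving out 1 PGK12.1 experiment gave 153 to 212 lower and 198 to 396 higher. Leaving out either WD44 experiment, an alternative chosen after seeing the data, repeats the fit to the PGK12.1 arrays alone. It is no separate check, since 1 remaining WD44 pair adds nothing to the measured spread. Centring arrays on their median gave 394 and 485 (55.2% higher), quantile normalization 366 and 477 (56.6%), testing each probe set 329 and 580, and a minimum taken over the PGK12.1 arrays 341 and 586. Fits with fewer arrays had fewer degrees of freedom, and for the other settings the cause was not tested. Of 179 called genes named by the rule, 167 stayed called after centring, 162 after quantile normalization and 98 to 125 without 1 PGK12.1 experiment. Medians of 16 of 84 lists and families changed sign after centring and of 17 after quantile normalization, none of them over 0.02 in size in the deposited scaling, and 11 medians over the 2 scalings moved by more than the SD of the list's median between experiments. Genes whose effect differed between the lines numbered 1 after centring, 2 after quantile normalization, 272 with a minimum of 0.25 and 543 with trend and robust moderation, in place of 0. Among uncalled genes Uty (-0.01) turned to 0.30 with double RNAi alone, 0.14 after quantile normalization and ran from -0.1267 to 0.12 without 1 experiment (0.07 without experiment 4), Vmn2r26 (-0.01) to 0.0055 after quantile normalization and ran from -0.07 to 0.037 without 1 experiment (0.01 without experiment 2), and Vmn2r54 (-0.01) to 0.0198 after quantile normalization and ran from -0.143 to 0.11 without 1 experiment (0.097 without experiment 3). Arrays differ in scale between experiments, so levels are comparable only within one, and 4 experiments and the number of arrays limit the precision.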

Other observations

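Calls in gene families in PGK12.1 are read beside 2.11% lower and 3.7% higher over all tested genes. The shares were 3.97% lower and 4.97% higher in solute carriers, 6.67% and 4.44% in guidance molecules, and 0% and 4.6% in Rab GTPases. Serpins had 23.1% and 7.69% of only 13 genes, and Zfp genes 0.926% and 1.54%. Of 302 tested solute carriers 15 rose and 12 fell, with a median of 0.0025 (-0.01 with arrays centred and after quantile normalization). Slc27a2, a fatty acid transporter and acyl-CoA synthetase, rose by 0.61, 0.54, 0.51 and 0.56 in the 4 experiments (mean 0.56 ± 0.043, limma SE, n = 4, limma adjusted p = 0.000467), the amino acid transporter Slc38a5 by 0.44 (0.00711) and the zinc transporter Slc30a4 by 0.40 (0.00556), while another zinc transporter, Slc30a2, fell by 0.39, 0.69, 0.35 and 0.45 (mean -0.47, 0.00304). Of 65 Rab GTPases, which steer vesicles, 3 rose, with Rab31 at 0.57, 0.43, 0.52 and 0.45 (mean 0.49, 0.000631). Of 13 tested serpins, mostly protease inhibitors, 3 fell and 1 rose (median -0.08): Serpinb9b (-0.39, 0.0194, and 0.0676 and 0.0717 without experiments 1 and 2), the collagen chaperone Serpinh1 (-0.38, 0.00443), the complement inhibitor Serping1 (-0.36, 0.00273) and, higher, Serpini1 (0.39, 0.00887). Of 45 semaphorins, plexins, ephrins and their receptors 3 fell and 2 rose, with Sema6c (-0.40, 0.00695) and Ephb3 (-0.31, 0.00903) lower and Efnb2 (0.30, 0.00861) higher beside Sema3e. Among zinc finger Zfp genes 3 of 324 fell and 5 rose, and of 33 germ cell and oocyte genes 2 fell and 2 rose.

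Several stress and metabolic lists had shares called above those over all tested genes, 2.11% lower and 3.7% higher, each from at most 3 genes. The unfolded protein response had 10.3% higher. The NRF2 and glutathione list had 8% higher and 4% lower, and the citric acid cycle 8.33% and 4.17%. Glycolysis had 9.52% lower and the fatty acid list 7.41%. Of 29 unfolded protein response genes 3 rose, the co-chaperone Dnajc3 (0.36, limma adjusted p = 0.00591), the transcription factor Xbp1 (0.27, 0.0104, 0.0545 without experiment 2) and Sel1l (0.20, 0.0374, and 0.0666 to 0.126 in the fits without 1 experiment). Of 25 NRF2 and glutathione genes 2 rose, with the sulfiredoxin Srxn1 at 0.44 (0.0108), and 1 fell. Of 24 citric acid cycle genes the citrate synthase Cs fell (-0.26, 0.00748) and Dld (0.22) and Pcx (0.21) rose, and of 21 glycolysis genes Eno3 (-0.27) and Hk1 (-0.17) fell. Of 27 genes of fatty acid synthesis and oxidation Fabp3 (-0.29) and Lpl (-0.25) fell. Of these 7 metabolic genes Cs alone passed in all 4 fits without 1 experiment, and without experiment 2 the adjusted p was 0.117 for Dld, 0.0704 for Pcx, 0.0707 for Eno3, 0.149 for Hk1, 0.0607 for Fabp3 and 0.0637 for Lpl. None of 58 ribosomal protein genes, 43 complex I subunits, 40 ribosome biogenesis genes, 29 spliceosome genes and 22 cholesterol synthesis genes was called, and Actb, the control gene of the study, had a log2 change of -0.04 (adjusted p = 0.651).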
